A study of Mus musculus with 6 samples.

Results

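Transcripts of 8 inhibitory checkpoint receptors were measured by bulk RNA sequencing of mouse T cells that had shared a culture with the mouse ovarian cancer line ID8. The receptors are Pdcd1 (PD-1), Ctla4, Lag3, Havcr2 (TIM-3), Tigit, Cd160, Btla and Cd96, taken from the deposited gene table by gene name. All 8 were found once each among its 54532 genes. The cisplatin group held 3 libraries of T cells cultured with ID8 cells that had been pretreated with 40 µM cisplatin, and the control group held 3 libraries of T cells cultured with ID8 cells pretreated with PBS. In both groups the T cells came from spleens of C57BL/6 mice aged 6 to 8 weeks, were isolated with a pan T-cell kit, were kept in 10 ng/mL IL-2 and were pre-activated for 72 h with anti-CD3/CD28 beads. The pretreatment of the ID8 cells is as the series records give it, and the handling of the T cells is as in the methods of the study. Neither gives the length of the co-culture. No genotype other than C57BL/6 is given for the mice. The methods describe no step that removed ID8 cells before RNA extraction, and the sources do not say whether the 3 libraries of a group came from separate mice or cultures, so p-values cover only the spread between these libraries.

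Inhibitory checkpoint receptors are surface proteins that dampen signalling from the T-cell receptor. Most are induced or raised when T cells are activated, and several of them stay high together on T cells that become exhausted under persistent antigen. CTLA-4 competes with the costimulatory receptor CD28 for CD80 and CD86, and PD-1 binds PD-L1 and PD-L2 and recruits tyrosine phosphatases. TIGIT and CD96 compete with the costimulatory receptor CD226 for the poliovirus receptor CD155, BTLA and CD160 bind the TNF receptor family member HVEM, LAG-3 binds MHC class II, and TIM-3 binds galectin-9 and CEACAM1. Antibodies against several of these receptors are used or tested as cancer immunotherapy, and the study asked how cisplatin-treated tumour cells change T cells.

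The libraries held transcripts of several cell types, at levels that differed between the groups. Reads rebuilt from the FPKM (fragments per length of gene and per size of library, as the authors deposited them) summed to 30606569 to 32169496 per library. The 16 T-cell identity genes, such as Cd3e, Lck and Trac, were higher with cisplatin without exception, and their mean log2(FPKM + 0.1) was 6.74 ± 0.018 (SD, n = 3) against 6.13 ± 0.032 (SD, n = 3) in control, a difference of 0.61 or 1.52-fold. The FPKM of the 15 ID8 tumour markers, such as Krt19 and Msln, summed to 205 to 212 with cisplatin and 1484 to 1566 in control, and the 11 of them that could be tested were lower. The FPKM of the 10 B-cell markers summed to 3629 to 3701 and 1688 to 1775, with 9 higher. Most of that sum was Ighm, the heavy chain of IgM, and the other 9 summed to 427 to 462 and 291 to 307, a 1.49-fold difference of the means. The FPKM of the 14 myeloid and dendritic markers summed to 128 to 147 and 62.7 to 66.7, with 9 of 10 tested higher, and to 47.0 to 49.4 and 32.1 to 34.1 without Lyz2. Clec9a, Xcr1 and Siglech, which mark dendritic subsets, stayed at or below 0.385 FPKM in every library. In bulk libraries, fewer cells of a type and less RNA per cell cannot be told apart. Receptor values are therefore given on the FPKM as deposited and, in addition, relative to the 16 T-cell identity genes, a scale that assumes that these genes did not change within T cells.

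On the FPKM as deposited, 7 of the 8 receptors were higher with cisplatin-pretreated ID8 cells and Lag3 did not pass the test. Calls needed an adjusted p-value (Benjamini-Hochberg over 15874 genes) under 0.05 from limma on log2(FPKM + 0.1), a scale that understates the change of genes with low values. Of all tested genes 27.5% were higher and 29.0% were lower by the same rule. The median log2 fold change was 0.35 for the receptors, against 0.03 for all tested genes and 0.63 for the T-cell identity genes. For the same 7 receptors each cisplatin library lay above each control library, which held for 31.9% of all tested genes. None of the 8 changed at least 2-fold, whereas 16.9% of tested genes did so in either direction and passed the test. Lower genes were 51.4% of all called genes, and 39.8% after quantile normalization, under which the same 7 receptors were called higher. Relative to the T-cell identity genes, 1 receptor was higher (Cd96), 5 were lower (Lag3, Ctla4, Cd160, Tigit and Btla) and 2 did not pass the test (Pdcd1 and Havcr2). On that scale 4.34% of all tested genes were higher and 67.8% were lower, so the share of lower receptors is near the background. Of the 16 T-cell identity genes themselves, 4 were called higher and 5 lower on the relative scale, and 7 did not pass the test. A call on that scale therefore does not by itself set a receptor apart from these genes. Cd3g was lowest among them, with a log2 fold change of -0.41. Of the 8 receptors, Lag3 lay below Cd3g and the other 7 lay above it.

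**Figure D1:**
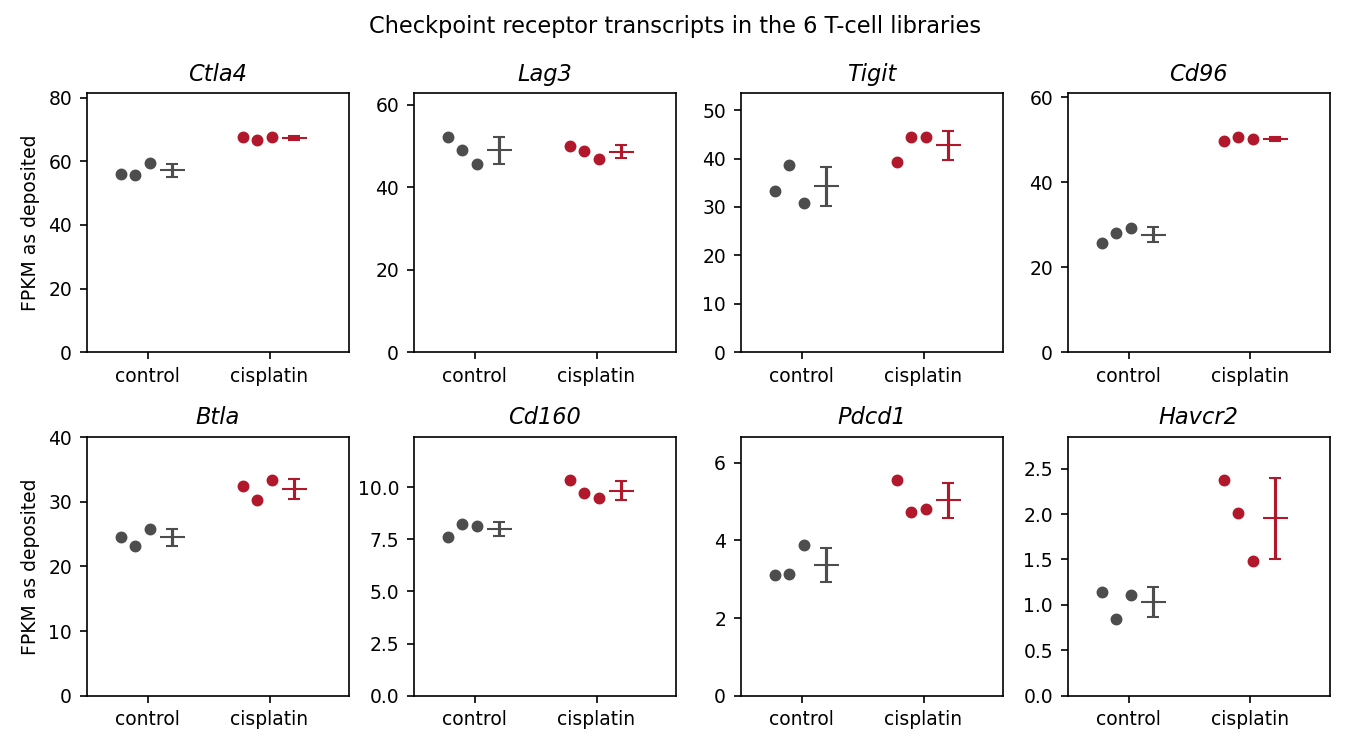
FPKM as deposited (vertical axes, from 0) of the 8 receptors in the 3 control (grey) and 3 cisplatin (red) libraries; points are libraries and the bar beside them is the mean with its SD. The groups overlap for Lag3 and are apart for the other 7 receptors, with the widest gap relative to the spread for Cd96 (25.8 to 29.1 against 49.7 to 50.7 FPKM).

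FPKM is per gene length, so levels can be ordered between receptors. In the control libraries Ctla4 stood highest at 57.1 ± 2.16 FPKM (SD, n = 3), followed by Lag3, Tigit, Cd96, Btla, Cd160, Pdcd1 and Havcr2, the last at 1.03 ± 0.162 FPKM (SD, n = 3). Of the neighbours in that order only Cd96 and Btla overlapped between libraries. In the cisplatin libraries Ctla4 was again first at 67.3 ± 0.628 FPKM (SD, n = 3) and Havcr2 last at 1.96 ± 0.446 FPKM (SD, n = 3). Cd96 moved from the 4th to the 2nd place, where it overlapped Lag3, and no other neighbours overlapped. The highest level was 55.3 times the lowest in control and 34.4 times in cisplatin. The summed FPKM of the 8 receptors was 258 ± 0.539 with cisplatin and 205 ± 1.6 in control (SD, n = 3 each). PD-1 and TIM-3, the pair that is often used to mark exhausted CD8+ T cells by flow cytometry, were thus the 2 receptors with the least transcript in these libraries.

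Cd96 (ENSMUSG00000022657, chromosome 16 from 46035657 to 46120251 of mm10, minus strand) had the clearest difference. CD96 is an immunoglobulin-family receptor of T and NK cells that binds CD155. Cisplatin libraries gave 49.7, 50.7 and 50.1 FPKM and the control libraries 25.8, 28.1 and 29.1 FPKM. The 3 cisplatin values lie within about 1 FPKM of each other and far above every control value. This was a log2 fold change of 0.86 (SE 0.05, limma, adjusted p = 1.2e-05), or 1.81-fold on the means. Relative to the T-cell identity genes it was still higher, with a log2 fold change of 0.25 (SE 0.04, limma, adjusted p = 0.00081), and the libraries of the groups did not overlap on that scale either. The 250 bases before the RefSeq start of Cd96 (GRCm38.p6, chr16:46120249-46120498, minus strand) are shown because Cd96 is the receptor with the most distinct rise. Capitals mark a match to the STAT-type GAS motif (TTCNNNGAA) and, after it, one to the NFAT motif (TGGAAA, here on the other strand).

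Cd96: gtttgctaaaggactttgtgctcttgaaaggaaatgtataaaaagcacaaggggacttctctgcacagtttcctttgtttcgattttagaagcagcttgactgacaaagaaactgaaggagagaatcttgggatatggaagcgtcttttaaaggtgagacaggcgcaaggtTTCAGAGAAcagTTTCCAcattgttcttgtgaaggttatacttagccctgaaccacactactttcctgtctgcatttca

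Tigit (ENSMUSG00000071552, chromosome 16 from 43648867 to 43664146, minus strand) shares the ligand CD155 with Cd96 and also binds nectin-2. The cisplatin libraries had 39.3, 44.5 and 44.4 FPKM and the control libraries 33.4, 38.7 and 30.8 FPKM. The lowest cisplatin value and the highest control value differ by less than 1 FPKM, so the groups are apart only narrowly. Its log2 fold change was 0.32 (SE 0.09, limma, adjusted p = 0.023), and relative to the T-cell identity genes it was -0.28 (SE 0.09, limma, adjusted p = 0.026). Both calls were lost when single libraries were left out. The first was lost without cisplatin replicate 2, without cisplatin replicate 3, without control replicate 1 and without control replicate 3 (values of 0.29, 0.29, 0.31 and 0.25, limma, adjusted p = 0.072, 0.070, 0.064 and 0.059). The second was lost without cisplatin replicate 1, without control replicate 1 and without control replicate 2 (values of -0.23, -0.28 and -0.20, limma, adjusted p = 0.079, 0.064 and 0.060).

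The costimulatory receptor that competes with both, Cd226, had 23.3, 20.8 and 22 FPKM with cisplatin and 16, 16.2 and 16.4 FPKM in control, a log2 fold change of 0.44 (limma, adjusted p = 0.00026). A ratio of 2 genes within a library does not depend on the scaling between libraries. The log2 ratio of Cd96 to Cd226 was 1.18 ± 0.095 with cisplatin and 0.77 ± 0.075 in control (SD, n = 3 each), so Cd96 stood at 2.27 times the level of Cd226 with cisplatin and 1.7 times in control. All 3 cisplatin ratios lay above the control ratios (two-sided exact permutation test, p = 0.1, the lowest value possible with 3 against 3 libraries, 0.2 after adjustment over the 4 pairs compared). The log2 ratio of Tigit to Cd226 was 0.95 ± 0.18 with cisplatin and 1.07 ± 0.17 in control (SD, n = 3 each). These ratios overlapped, and the difference of -0.12 had a standard error of 0.14 (two-sided exact permutation test, p = 0.5, adjusted p = 0.6).

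Ligands of this axis were lower with cisplatin. Nectin2 had 7.21, 7.85 and 7.44 FPKM with cisplatin and 47.7, 51.6 and 45.4 FPKM in control, a log2 fold change of -2.67 (limma, adjusted p = 2.2e-07). Pvr, the gene of CD155, had a log2 fold change of -1.16 (limma, adjusted p = 6.1e-06), and Nectin1, which mouse CD96 also binds, of -0.91 (limma, adjusted p = 0.00017). Nectin3 stayed at or below 0.0921 FPKM. Nectin2 and Pvr fell in the same libraries as the ID8 tumour markers, whose median log2 fold change was -2.34; whether the ligand transcripts came from ID8 cells was not tested.

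Ctla4 (ENSMUSG00000026011, chromosome 1 from 60887000 to 60915832, plus strand) lies between Cd28 and Icos, the genes of 2 related costimulatory receptors. Its cisplatin libraries held 67.5, 66.6 and 67.8 FPKM and the control libraries 56.0, 55.8 and 59.6 FPKM. The groups do not overlap, and the cisplatin libraries differ little from each other. The log2 fold change was 0.24 (SE 0.03, limma, adjusted p = 0.0012), or 1.18-fold on the means. This is less than the change of the T-cell identity genes, and relative to them Ctla4 was lower, with a log2 fold change of -0.37 (SE 0.03, limma, adjusted p = 6.3e-05). Its gene neighbours Cd28 and Icos both had a log2 fold change of 0.53 (limma, adjusted p = 2.7e-05 and 3.5e-05), and of -0.08 and -0.07 relative to the identity genes, where neither passed the test. The log2 ratio of Ctla4 to Cd28 was 0.78 ± 0.039 with cisplatin and 1.07 ± 0.042 in control (SD, n = 3 each), so Ctla4 transcripts went from 2.10 to 1.72 times those of Cd28. All 3 cisplatin ratios lay below all control ratios (two-sided exact permutation test, p = 0.1, the smallest possible, adjusted p = 0.2).

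**Figure D2:**
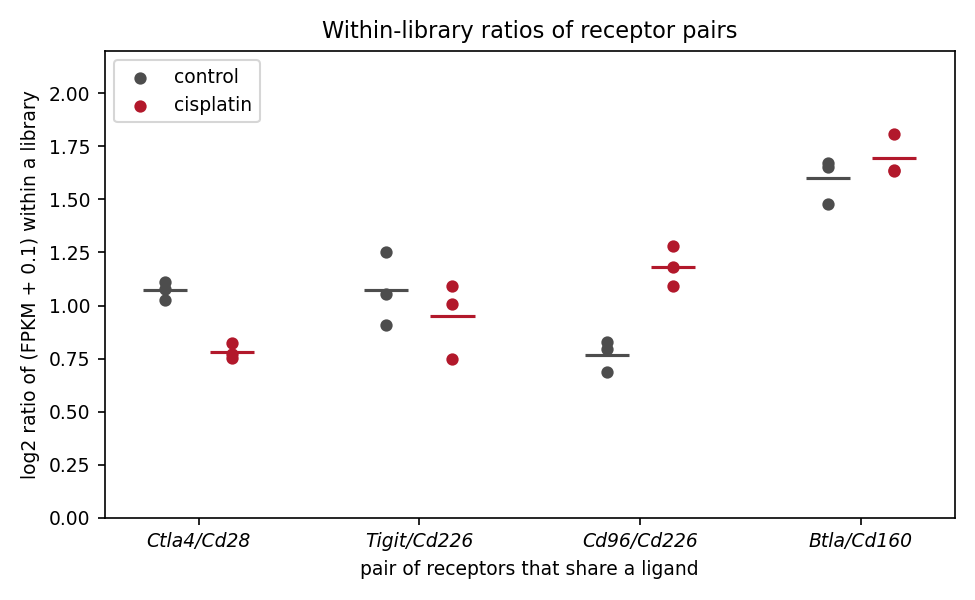
Log2 ratios of FPKM + 0.1 (vertical axis, from 0) of 4 pairs of receptors that share a ligand, within each control (grey) and cisplatin (red) library; points are libraries and lines are means. The cisplatin ratios lie below the control ratios for Ctla4/Cd28 (means 0.78 and 1.07), above them for Cd96/Cd226 (1.18 and 0.77), and overlap them for Tigit/Cd226 and Btla/Cd160.

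The ligands that CTLA-4 and CD28 share were higher on the FPKM as deposited. Cd80 had 4.72 to 5.17 FPKM with cisplatin and 2.51 to 3.07 FPKM in control (log2 fold change 0.76, limma, adjusted p = 0.00060), and Cd86 had a log2 fold change of 0.37 (limma, adjusted p = 0.0078). Relative to the identity genes they were at 0.16 and -0.23, and neither passed the test. Ctla4 and Tigit are both abundant in regulatory T cells. Of the 7 regulatory T-cell markers 5 were higher and Nrp1, which other cells also express, was lower, and their FPKM summed to 78.4 to 80.0 with cisplatin and 57.1 to 58.0 in control. Foxp3, the lineage factor of these cells, had 6.51 to 6.79 FPKM with cisplatin and 2.39 to 2.86 FPKM in control, a log2 fold change of 1.30 (limma, adjusted p = 1.8e-05) that was 0.69 relative to the identity genes (limma, adjusted p = 0.00036). Over the whole marker list the relative scale gave 3 higher, 2 lower (Nrp1 and Tnfrsf18) and a median log2 fold change of 0.038. The part of regulatory T cells in the values of Ctla4 and Tigit was not tested.

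The 250 bases before the RefSeq start of Ctla4 (GRCm38.p6, chr1:60908775-60909024, plus strand) are shown because Ctla4 is the receptor with the most transcript. That start lies inside the gene as the deposited table delimits it, and a match to the NFAT motif on the other strand is in capitals.

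Ctla4: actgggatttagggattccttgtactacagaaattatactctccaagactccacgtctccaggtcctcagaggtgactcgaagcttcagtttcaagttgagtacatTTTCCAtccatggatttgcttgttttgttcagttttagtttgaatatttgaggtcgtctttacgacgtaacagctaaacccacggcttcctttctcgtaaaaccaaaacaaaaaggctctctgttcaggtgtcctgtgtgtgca

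The RefSeq table held 8 such windows, from 250 bases before to 50 after a start, for 7 of the 8 receptors. Motifs were searched on both strands, and no 2 kinds of match overlapped in these windows. The GAS motif was found in a window of Cd96 and of Cd160, against 8.30% of all 32851 windows. The AP-1 motif (TGANTCA) was found in the window of Havcr2 (7.81% of all windows), and the NFAT motif in those of Cd96 and Ctla4 (21.4%). The NF-κB motif (GGGA and CC with any 4 bases between) was found in that of Cd96 (20.7%). The windows of Pdcd1, Tigit and Btla held none of the 4 motifs. A match describes these letters and is not a binding site.

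Pdcd1 (ENSMUSG00000026285, chromosome 1 from 94038305 to 94052553, minus strand) was low. Cisplatin libraries gave 5.56, 4.74 and 4.81 FPKM (301 to 347 rebuilt reads) and the control libraries 3.11, 3.13 and 3.88 FPKM (180 to 230 reads). All cisplatin values lie above all control values. Its log2 fold change was 0.57 (SE 0.11, limma, adjusted p = 0.0049), close to that of the T-cell identity genes. Relative to them it was -0.04, with a 95% interval from -0.30 to 0.23 (limma, adjusted p = 0.78), so a change of Pdcd1 on that scale was not detected, and its sign varied over the alternatives (-0.13 to 0.05). Of its ligands, Cd274 (PD-L1) had 47.0 to 49.5 FPKM with cisplatin and 37.9 to 40.4 FPKM in control (log2 fold change 0.30, limma, adjusted p = 0.00053). Pdcd1lg2 (PD-L2) had 6.17 to 6.66 and 2.55 to 3.59 FPKM (log2 fold change 1.06, limma, adjusted p = 0.00038). On the relative scale Cd274 was lower, at -0.31 (limma, adjusted p = 0.00022), and Pdcd1lg2 was higher, at 0.46 (limma, adjusted p = 0.0096).

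Btla (ENSMUSG00000052013, chromosome 16 from 45224315 to 45257670, plus strand) is found on B cells as well as on T cells. The cisplatin libraries had 32.4, 30.4 and 33.4 FPKM and the control libraries 24.5, 23.1 and 25.8 FPKM. The groups are apart by several FPKM. This was a log2 fold change of 0.39 (SE 0.05, limma, adjusted p = 0.0010), and -0.22 relative to the T-cell identity genes (SE 0.06, limma, adjusted p = 0.013). The B-cell markers had a median log2 fold change of 0.61 in the same libraries, with Ms4a1 at 25.7 to 26.9 FPKM with cisplatin and 12.2 to 14.3 FPKM in control. On the relative scale 4 of the 10 B-cell markers were higher, 2 were lower (Cd79a and Ighd) and 4 did not pass the test. Their median on that scale was 0.00082. The part of B cells in the Btla values was not tested.

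Cd160 (ENSMUSG00000038304, chromosome 3 from 96798763 to 96829351, minus strand) encodes a receptor of NK and cytotoxic T cells that is anchored to the membrane by a lipid. Its cisplatin libraries held 10.3, 9.71 and 9.47 FPKM and the control libraries 7.63, 8.24 and 8.14 FPKM. No value of one group reaches the other. The log2 fold change was 0.29 (SE 0.06, limma, adjusted p = 0.0038), and -0.31 relative to the identity genes (SE 0.06, limma, adjusted p = 0.0021). Cd160 shares 68 exonic bases with Pdzk1 on the other strand, and whether the counting used strand is not stated. Pdzk1 had at most 0.0781 FPKM in these libraries. Of the NK-cell markers, which also bear on Cd96 and Tigit, 6 of 9 tested were higher and 3 did not pass the test, and the FPKM of all 10 summed to 243 to 250 with cisplatin and 175 to 181 in control. Ncr1, the marker closest to NK identity among them, had 0.803, 1.16 and 1.5 FPKM with cisplatin and 0.735, 0.996 and 0.719 FPKM in control and did not pass the test (log2 fold change 0.43, limma, adjusted p = 0.22). The part of NK cells in the values of Cd160, Cd96 and Tigit was not tested.

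Tnfrsf14, the gene of HVEM, which BTLA and CD160 share as a ligand, had 61.2, 65.4 and 61.1 FPKM with cisplatin and 33.4, 32.2 and 32.3 FPKM in control. Its log2 fold change was 0.94 (limma, adjusted p = 2.6e-06), and 0.33 relative to the T-cell identity genes (limma, adjusted p = 0.00036). The log2 ratio of Btla to Cd160 was 1.69 ± 0.097 with cisplatin and 1.6 ± 0.11 in control (SD, n = 3 each). These ratios overlapped, and their difference of 0.09 had a standard error of 0.08 (two-sided exact permutation test, p = 0.6, adjusted p = 0.6).

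Lag3 (ENSMUSG00000030124, chromosome 6 from 124904361 to 124911705, minus strand) was the receptor whose libraries overlapped between the groups. It lies beside Cd4 and encodes a CD4-related protein that binds MHC class II. Cisplatin libraries gave 50.1, 48.9 and 46.9 FPKM and the control libraries 52.3, 49.0 and 45.8 FPKM. The cisplatin values lie inside the range of the control values. Its log2 fold change was -0.01 with a 95% interval from -0.14 to 0.12 (limma, adjusted p = 0.88), and its sign changed with the scaling, from -0.03 on TPM to 0.07 with limma's voom on the rebuilt reads. Lag3 had 2963 to 3419 rebuilt reads per library. Relative to the T-cell identity genes Lag3 was lower, with a log2 fold change of -0.62 (SE 0.07, 95% interval from -0.78 to -0.45, limma, adjusted p = 0.00015), or 0.653 times the control level. This is close to the median of all tested genes on that scale, which was -0.58. The neighbouring gene Cd4 had 51.2 to 56.1 FPKM with cisplatin and 39.6 to 41.3 FPKM in control, a log2 fold change of 0.41 (limma, adjusted p = 0.00019). Cd8a and Cd8b1 had log2 fold changes of 0.43 and 0.39 (limma, adjusted p = 5.6e-05 and 0.00024). On the relative scale Cd4, Cd8a and Cd8b1 were lower as well, at -0.20, -0.17 and -0.21 (limma, adjusted p = 0.0032, 0.0015 and 0.00081). The MHC class II genes H2-Aa, H2-Ab1 and H2-Eb1 had log2 fold changes of 0.53, 0.57 and 0.60 as deposited, and each was called higher. On the relative scale they were at -0.08, -0.04 and -0.01, and none passed the test. The ligand Lgals3 (galectin-3) was lower, with 30.8 to 36.5 FPKM against 86.0 to 93.1 FPKM (log2 fold change -1.42, limma, adjusted p = 4.9e-06), while the ligand genes Fgl1 and Clec4g stayed at or below 0.125 FPKM.

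**Figure D3:**
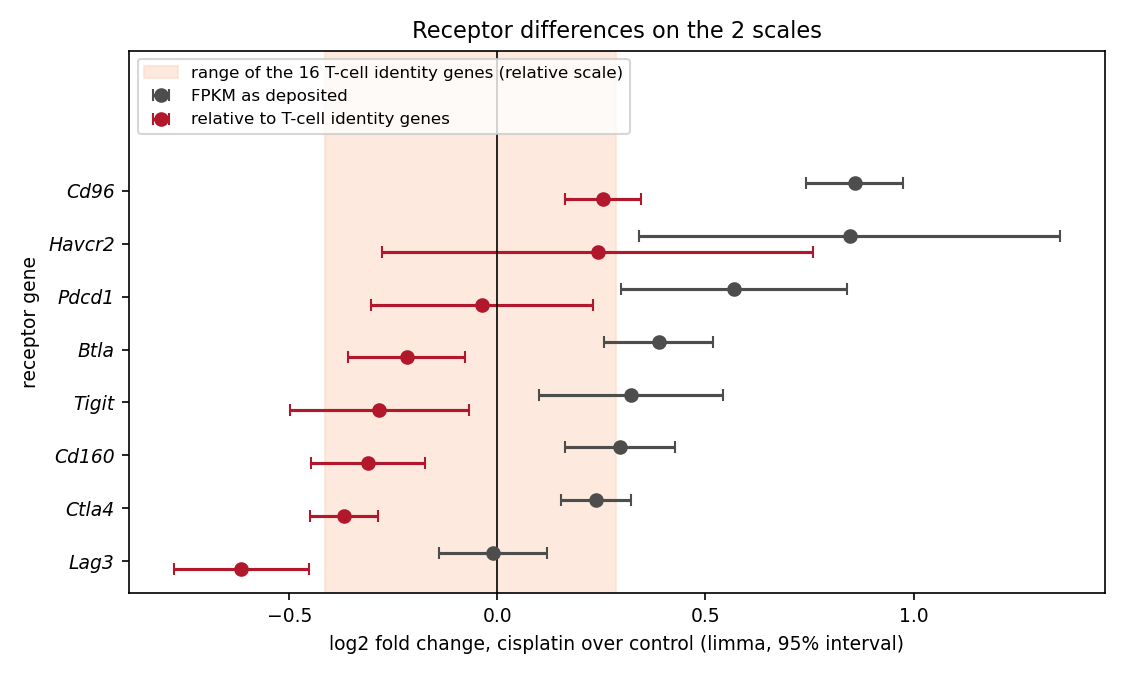
Log2 fold changes of the 8 receptors, cisplatin over control (horizontal axis), with 95% intervals from limma, on the FPKM as deposited (grey) and relative to the 16 T-cell identity genes (red); the shaded band is the range of these identity genes on the relative scale, with its lower edge at -0.41. Cd96 is above 0 on both scales, Lag3 is at -0.01 and -0.62, and the interval of Havcr2 is the widest on both.

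Havcr2 (ENSMUSG00000020399, chromosome 11 from 46454935 to 46481255, plus strand) had the lowest level and, on the log2 scale, the largest standard error. The cisplatin libraries had 2.37, 2.01 and 1.49 FPKM (131 to 209 rebuilt reads) and the control libraries 1.14, 0.846 and 1.11 FPKM (69 to 93 reads). All cisplatin values lie above all control values, but they differ among themselves by more than the gap between the groups. This was a log2 fold change of 0.85 (SE 0.21, limma, adjusted p = 0.013), and 0.53 with a pseudocount of 1 in place of 0.1. Relative to the T-cell identity genes it was 0.24, with a 95% interval from -0.28 to 0.76 (limma, adjusted p = 0.35) and values from -0.07 to 0.42 over the alternatives. TIM-3 is also found on macrophages and dendritic cells. The myeloid and dendritic markers had a median log2 fold change of 1.24, with Csf1r at 3.44 to 4.43 FPKM with cisplatin and 1.36 to 1.66 FPKM in control and Lyz2 at 79.2 to 97.2 and 29.0 to 32.6 FPKM. The list was not uniform, and Cd68 did not pass the test (log2 fold change 0.0041, limma, adjusted p = 0.97). On the relative scale 5 of the 10 tested markers were higher, 1 was lower (Cd68, at -0.60) and 4 did not pass the test. The part of these markers in the Havcr2 values was not tested.

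Of the ligands of TIM-3, galectin-9 and CEACAM1 had lower transcripts with cisplatin. Lgals9 (galectin-9) had 64.7, 59.6 and 57.6 FPKM with cisplatin and 102, 104 and 108 FPKM in control, a log2 fold change of -0.79 (limma, adjusted p = 1.9e-05). Ceacam1 had a log2 fold change of -0.67 (limma, adjusted p = 0.0033). Hmgb1 had one of 0.18 (limma, adjusted p = 0.045), a call that held in 7 of 17 alternatives. Among others, it was lost on TPM and with median of ratios (0.16 and 0.17). It was also lost without cisplatin replicates 1 or 3 (0.16 and 0.14) and without control replicates 1, 2 or 3 (0.15, 0.20 and 0.18). On the relative scale Hmgb1 was lower, at -0.43 (limma, adjusted p = 0.00088). Over the whole list of 18 ligand genes, 15 could be tested, of which 9 were higher and 6 lower, with a median log2 fold change of 0.30. On the relative scale 2 were higher (Tnfrsf14 and Pdcd1lg2), 8 were lower and 5 did not pass the test, with a median of -0.31. The lower ones on the FPKM as deposited were Nectin2, Lgals3, Pvr, Nectin1, Lgals9 and Ceacam1. The 8 costimulatory receptors had a median log2 fold change of 0.45. Of these, 5 were higher, Tnfrsf9 (4-1BB) was lower (log2 fold change -0.20, limma, adjusted p = 0.012, a call lost after quantile normalization, rescaling to reads on genes and voom), and Tnfrsf18 and Cd40lg did not pass the test (log2 fold changes of 0.05 and 0.45), although both did after quantile normalization (0.14 and 0.62). On the relative scale 1 costimulatory receptor was higher and 4 were lower, with a median of -0.16. Among all tested genes 67.8% were lower on that scale, and the median was -0.58.

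**Figure D4:**
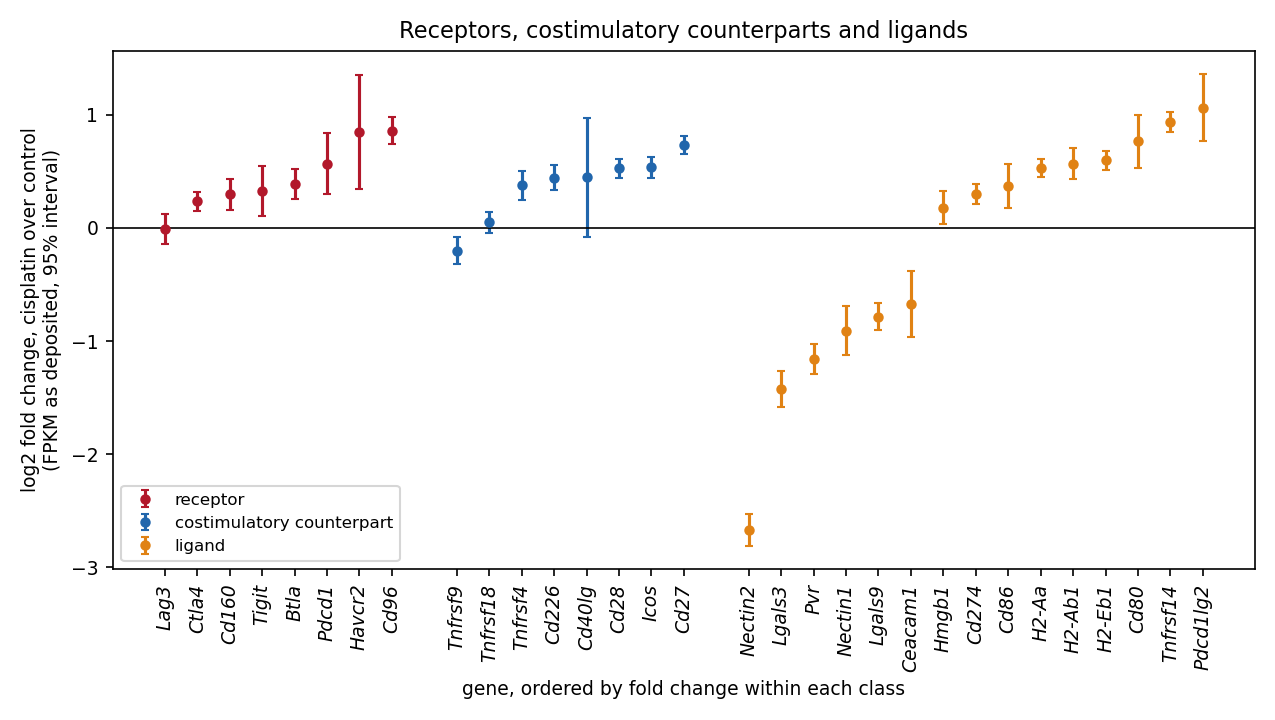
Log2 fold changes on the FPKM as deposited, cisplatin over control (vertical axis), with 95% intervals from limma, of the 8 receptors (red), 8 costimulatory receptors (blue) and the 15 tested ligand genes (orange), ordered within each class. Receptors lie between -0.01 and 0.86, while ligands reach from -2.67 (Nectin2) to 1.06 (Pdcd1lg2).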

How the data were processed

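RNA of T cells after co-culture with ID8 cells was sequenced in 3 cisplatin and 3 control libraries. The submitters' processing notes name fastp, HISAT2 2.0.5 and featureCounts 1.5.0-p3 on mm10, while the study's methods name LifeScope for alignment and counting. The authors deposited FPKM, which scales read counts to the length of a gene and to the library. Neither source states whether strand was used or what was done with reads that matched several genes. Per the file headers, gene coordinates, lengths and names stand beside the FPKM, and 53499 of the 54409 genes shared with GENCODE M21 (GRCm38) had the same coordinates. The table held 0 further columns of samples.

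Reads were rebuilt as FPKM times gene length over the step worth 1 read, and 100% of the values above 0 came out whole (within 0.1). They cover counting error only. The FPKM denominator was on average 1.04 times the reads on genes in cisplatin and 0.980 times in control libraries. log2(FPKM + 0.1) was tested with limma 3.58.1 (lmFit, eBayes with trend) in R 4.3.3 in the 15874 genes whose mean reached 0.5 FPKM. The study's DESeq2 test was not repeated here, and limma's voom on the rebuilt reads was the alternative based on counts. All 8 receptors passed the filter, which used the mean over all 6 libraries. For the relative scale, each library was centred on the average log2(FPKM + 0.1) of the 16 identity genes of T cells. Within-library ratios were compared by two-sided exact permutation tests (scipy 1.17.1). The limma fit on the FPKM scale was tested on simulated reads with known fold changes. The fit on the relative scale was not compared with known values.

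The receptors and the 13 context gene lists were chosen with earlier results of these data known. All receptors are named, and list genes were named if changed at least 2-fold, if abundant, or as ligands and partners of a receptor; the last of these adds to the rule that was fixed. The value of 1 identity gene is not reported here. The rule for genes of similar pattern applied to receptors changed at least 2-fold and gave none. Alternatives were pseudocounts of 1 and 0.01, no filter and a minimum of 5 FPKM, median of ratios, quantile normalization, TPM, FPKM rescaled to reads on genes, no trend, limma's voom on rebuilt reads (genes with 10 or more reads in 3 or more libraries), other reference genes, single replicates left out, and a block for the replicate number. Leaving the 3 receptor constant genes out of the reference was chosen after the data were seen.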

Additional observations from a re-analysis of the deposited data

How the results depend on the processing

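The 7 receptors called higher on the FPKM as deposited kept their sign in every alternative in which they were tested, and all but Tigit kept their call. Pdcd1 and Havcr2 were not tested at a minimum of 5 FPKM. Without single replicates Tigit ranged from 0.25 to 0.41 (log2) as deposited and from -0.37 to -0.20 relative to the T-cell identity genes, with the lost calls given beside its values. Lag3 passed the test in none of its 17 alternatives (log2 fold changes from -0.06 to 0.07, adjusted p from 0.23 to 0.92 by limma). On the relative scale, the calls of Lag3, Ctla4, Cd160, Btla and Cd96 held in all 12 alternatives, including the TCR-CD3 complex as the reference. Pdcd1 and Havcr2 passed in none of 11.

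With a minimum of 5 FPKM fewer genes are tested, and 3 other inhibitory receptors, 3 regulatory T-cell markers and 1 myeloid marker were called higher and 0 regulatory T-cell markers lower. After quantile normalization, with FPKM rescaled to reads on genes and with voom, 0 costimulatory receptors were called lower; the cause was not tested. The median log2 fold change of all tested genes was 0.03 as deposited, 0.16 after quantile normalization, 0.11 with FPKM rescaled to reads on genes and -0.58 on the relative scale. Lower genes were 51.4% of all called genes as deposited, 39.8% after quantile normalization, 43.4% with FPKM rescaled to reads on genes and 94.0% on the relative scale. With a pseudocount of 1, Lair1 relative to the T-cell identity genes changed from 0.41 to -0.0020 and lost its call.

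Same-numbered libraries were treated as unpaired. Correlations of their deviations were 0.0229, -0.063 and -0.0207, and no cisplatin library correlated best with its own number. Such correlations cannot decide whether libraries shared a mouse or a culture, which the sources do not state. With the replicate block 7 receptors were called higher and 0 lower as deposited, and 1 higher and 5 lower on the relative scale. The 3 libraries a group limit every test, and Havcr2 (69 to 209 reads) is the least precise receptor.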

Other observations

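Other inhibitory receptors of lymphocytes and myeloid cells were mostly higher on the FPKM as deposited. Of 14 genes 11 were higher and none lower by limma, with a median log2 fold change of 0.61, and relative to the T-cell identity genes 2 were higher (Cd300a and Lair1) and 5 lower. Both relative calls were lost with a pseudocount of 1. That of Lair1 held in only 2 of 11 alternatives, and among others it was also lost without any single library (0.38 to 0.45). Cd300a, which is most abundant on myeloid and NK cells, had 1.13 to 1.61 FPKM with cisplatin and 0.32 to 0.39 FPKM in control (log2 fold change 1.79, limma, adjusted p = 0.00073), and Lair1, a collagen receptor, had a log2 fold change of 1.01 (limma, adjusted p = 0.00088). Vsir (VISTA) was abundant, with 44.1 to 45.5 and 40.5 to 43.9 FPKM, and did not pass the test as deposited (log2 fold change 0.08, limma, adjusted p = 0.11), but did after quantile normalization (0.13), rescaling to reads on genes (0.17), with voom (0.17) and without control replicate 2 (0.11). Relative to the T-cell identity genes it was lower (log2 fold change -0.52, limma, adjusted p = 1.2e-05). Among all tested genes 67.8% were lower on that scale, and the median was -0.58.

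Transcription factors that are known to act on checkpoint receptor genes and exhaustion were higher for 12 of 16 tested genes, with a median log2 fold change of 0.60. Relative to the T-cell identity genes 3 were higher, Batf (log2 fold change 0.36), Irf4 (log2 fold change 0.37) and Eomes (log2 fold change 0.45), with adjusted p = 0.00036, 0.00011 and 0.010 by limma. On that scale 5 were lower, namely Maf (-1.69), Nr4a1 (-0.61), Id2 (-0.46), Nr4a2 (-0.45) and Nfatc2 (-0.14), and the median of the list was -0.0013. Among all tested genes 67.8% were lower on that scale, and the median was -0.58. The call of Nfatc2 held in only 3 of 12 alternatives, and among others it was lost without any single library (-0.15 to -0.12). That of Eomes was lost with a pseudocount of 1 (0.13). Tox, a factor of exhausted T cells, had 1.96 to 2.35 FPKM with cisplatin and 1.18 to 1.27 FPKM in control (log2 fold change 0.79, limma, adjusted p = 0.0016), and a log2 fold change of 0.18 on the relative scale (limma, adjusted p = 0.25). Nr4a1 did not pass the test as deposited (log2 fold change -0.01, limma, adjusted p = 0.94). Maf was lower, with 8.41 to 8.88 and 18.0 to 18.5 FPKM (log2 fold change -1.08, limma, adjusted p = 1.8e-06).

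Of 11 signalling proteins downstream of the receptors 8 were higher and 3 lower. Ptpn6 (SHP-1), a phosphatase that inhibitory receptors recruit, had 86.9 to 91.9 FPKM with cisplatin and 43.5 to 44.1 FPKM in control, a log2 fold change of 1.04 (limma, adjusted p = 7.3e-07) and of 0.43 relative to the T-cell identity genes (limma, adjusted p = 4.5e-05). Ptpn11 (SHP-2), which PD-1 recruits, had a log2 fold change of -0.23 (limma, adjusted p = 0.0010). Bag6, which binds the tail of TIM-3, had one of -0.35 (limma, adjusted p = 0.00051). On the relative scale 2 of the 11 were higher and 6 lower, with a median of -0.28, Ptpn11 at -0.83 and Bag6 at -0.96. Among all tested genes 67.8% were lower on that scale and the median was -0.58, so these lower calls do not exceed the background. The median log2 fold change of the 7 genes of the T-cell receptor and CD3 complex was 0.73 as deposited and 0.12 on the relative scale. That of the 3 coreceptor genes was 0.41 and -0.20.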
